A study of Homo sapiens with 9 samples.

Results

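The 40 genes described here belong to the response to low oxygen and to glycolysis: subunits of the hypoxia-inducible factors (HIF), oxygen sensors, glucose transporters, the glycolysis enzymes from hexokinase to lactate dehydrogenase, and well-known HIF-induced genes. They were selected by gene symbol and known function, with earlier results of these libraries known, among them that NDRG1 was lower with uridine. The count table lists 20777 genes. All 40 members were listed, and all 40 were among the 13384 genes that passed the filter on low counts and were tested. Because of how the members were picked, single-gene values of TGF-β + uridine against TGF-β are given as a description, without a p-value. Counts of calls in that comparison are printed with no conclusion drawn from them.

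Cells answer low oxygen through HIF. Its α subunits, HIF-1α (HIF1A) and HIF-2α (EPAS1), are hydroxylated by prolyl hydroxylases (EGLN genes) when oxygen is present, are then marked for degradation by the VHL protein, and in low oxygen escape this and pair with ARNT to switch on genes for glucose uptake, glycolysis, acid export and vessel growth. Because much of this control acts on the HIF-α proteins, mRNA levels of the HIF genes themselves need not follow the activity of the pathway. Activated hepatic stellate cells, the main source of scar matrix in liver fibrosis, are known for high glycolysis, and the same hypoxia programme holds the collagen prolyl hydroxylases that stabilise newly made collagen.

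The libraries came from LX-2, an immortalised human hepatic stellate cell line with a wild-type genotype by its label, cultured in DMEM with fetal bovine serum. Total RNA was sequenced in 3 control libraries, which carry no treatment label, 3 libraries of cells given TGF-β and 3 libraries of cells given TGF-β and uridine, both treatments being labelled day 1. TGF-β is the cytokine that drives stellate cell activation, and in the study's methods it was given first and the medium then changed for one with uridine, a pyrimidine nucleoside. Uridine was not given alone, low oxygen was not applied, and all libraries share 1 cell line, so its effect was measured on top of TGF-β and in this line.

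The libraries held 40539751 to 41467124 counts each. A value is given as CPM, the gene's share of the library's counts, scaled between libraries by TMM (trimmed mean of M values). A gene was called changed when its p from edgeR's quasi-likelihood test was under 0.05 after Benjamini-Hochberg adjustment across the 13384 genes tested. Nothing in the sources says that the replicates were separate cultures, so that p-values measure the spread between these libraries, which may be technical. Control replicate 1 stood apart: the slope of its log2 CPM on the GC content of genes was 5.77 log2 units per unit of GC fraction, against −4.16 in control replicate 3, −0.33 to 0.55 with TGF-β and −2.74 to 2.32 with TGF-β + uridine. Stellate markers on a list of 11 genes summed to 1257 to 1602 CPM in controls, 2198 to 2304 CPM with TGF-β and 1841 to 2175 CPM with TGF-β + uridine, most of it VIM (1006 to 1153 CPM, 1807 to 1863 CPM and 1478 to 1733 CPM). Among them COL1A2 had no more than 1 read in any library and LRAT was not listed. Hepatocyte markers summed to at most 0.366 CPM and endothelial markers to 1.59 to 2.88 CPM. The macrophage list, carried by CD68 and CSF1R with PTPRC not listed, summed to 34.6 to 48.2 CPM in controls, 74.9 to 84.0 CPM with TGF-β and 62.4 to 77.9 CPM with TGF-β + uridine. The epithelial list, carried by the keratins KRT8 and KRT18, summed to 5677 to 11423 CPM in controls, 7459 to 7930 CPM with TGF-β and 5875 to 7693 CPM with TGF-β + uridine. The part of these markers in the results was not tested. In bulk RNA, fewer cells expressing a gene and less RNA of it per cell cannot be told apart.

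HIF binds DNA at a short core with the letters ACGTG or GCGTG. This core was searched on both strands in the 250 bases before each RefSeq start (GRCh38.p14), so that CACGTG, which reads the same on both strands, gives 2 overlapping matches. RefSeq windows were matched by symbol for 35 of the 40 members, and 36 of their 55 windows held the core (65.5%), against 15172 of 35116 windows over all genes (43.2%). The member windows were also richer in GC, with a median of 68.4% against 58.0% over all windows. A set of 4 stretches is printed with the core in capitals, 1 for each of the called genes PFKFB3 and CA9, for LDHA, which makes lactate, and for GAPDH, the most abundant member. Of the other called genes, the window of P4HA2 held 0 matches and NDRG1 was not among the matched symbols, so that the set shown is chosen for holding the core. The PFKFB3, LDHA and GAPDH stretches are the parts of their windows outside annotated exons, and that of CA9 is the core with 10 bases on either side. A match is a description of the letters and not a measured binding site.
PFKFB3, chr10:6202694-6202865, plus strand: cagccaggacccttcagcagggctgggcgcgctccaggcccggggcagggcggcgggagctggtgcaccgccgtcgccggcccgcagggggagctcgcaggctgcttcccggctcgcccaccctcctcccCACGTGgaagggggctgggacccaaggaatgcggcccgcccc
CA9, chr9:35673900-35673924, plus strand: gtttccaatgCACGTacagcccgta
LDHA, chr11:18394313-18394387, plus strand: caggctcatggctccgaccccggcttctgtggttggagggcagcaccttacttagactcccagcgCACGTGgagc
GAPDH, chr12:6535142-6535263, plus strand: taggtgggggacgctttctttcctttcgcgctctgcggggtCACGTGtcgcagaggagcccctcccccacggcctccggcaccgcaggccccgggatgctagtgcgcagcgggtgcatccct

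Per gene length, the members spanned about 4 orders of magnitude. Levels between genes are compared as FPKM, which divides counts by gene length and library total, averaged over the 9 libraries. GAPDH, which oxidises glyceraldehyde-3-phosphate, was highest at 9259 FPKM, followed by the enolase ENO1 at 3640 FPKM, the pyruvate kinase PKM at 2530 FPKM, the isomerase TPI1 at 1966 FPKM and LDHA at 1387 FPKM. The ranges of GAPDH (7811 to 10483 FPKM), ENO1 (3215 to 4275 FPKM) and PKM (2341 to 2807 FPKM) did not overlap, whereas those of PKM and TPI1 (1592 to 2383 FPKM) did. Pathway regulators lay far lower, with EPAS1 at 25.8 FPKM, ARNT at 11.0 FPKM, HIF1A and VHL both at 10.4 FPKM and PFKFB3 at 5.29 FPKM. The lowest levels were those of ANKRD37 (0.896 FPKM) and PDK1 (0.452 FPKM), a kinase that inhibits pyruvate dehydrogenase. The FPKM of PDK1 rests on a gene length of 15188 bases, against 1029 for ANKRD37. In CPM, which is not divided by length, ANKRD37 was the lowest member. Among the pathway regulators named, HIF1A had the widest range, from 2.42 to 21.7 FPKM, which overlapped with those of ARNT and VHL. By the annotation, 62 pseudogenes carry the name of GAPDH, 39 that of BNIP3 and 13 that of PGAM1, and ALDOA overlaps a readthrough gene listed with reads of its own, so that the levels of these members are uncertain where reads were split or lost.

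**Figure D1:**
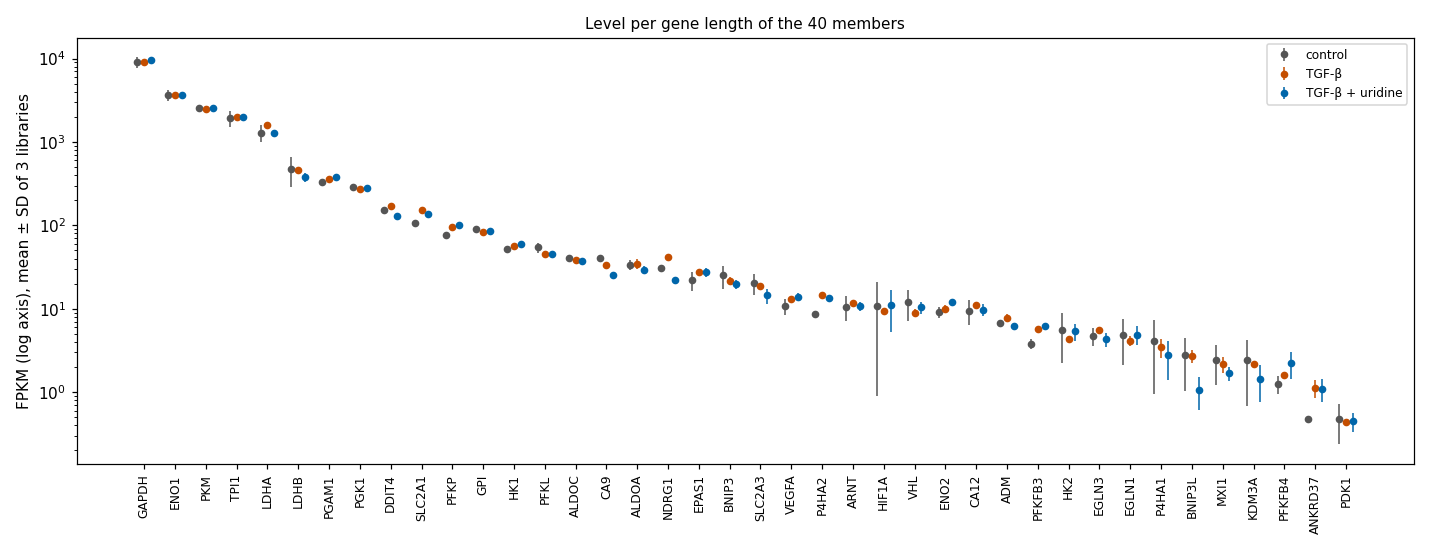
Mean FPKM (log axis) of each member in the control, TGF-β and TGF-β + uridine groups, with bars of 1 SD over 3 libraries. Members are ordered by their mean over 9 libraries, from GAPDH (9259 FPKM) to PDK1 (0.452 FPKM), and HIF1A in the control group has a wide error bar.

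Among the HIF subunits and oxygen sensors, no gene passed the test in any comparison. HIF1A measured 12.4, 33.3 and 78.5 CPM in the controls, 38.8, 41.3 and 39.3 CPM in the TGF-β group, and 43.8, 24.0 and 66.3 CPM in the TGF-β + uridine group. The control libraries spanned the whole range of the other 2 groups, and the log2 fold change of TGF-β against control was −0.06 (SE 0.57, adjusted p = 0.998 by edgeR). HIF1A is poor in GC (36.4%), and among the controls it was lowest in the library with the steepest GC slope and highest in the one with the lowest slope. With the library's GC slope as a covariate its log2 fold change turned to 0.25 (adjusted p = 0.0551 by edgeR), so that no direction is given for it.

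EPAS1, which encodes HIF-2α, was steadier. Its libraries held 103, 127 and 125 CPM in controls, 151, 149 and 156 CPM with TGF-β, and 155, 139 and 150 CPM with TGF-β + uridine. Every treated library lay above every control, but the log2 fold changes of 0.36 (SE 0.10) for TGF-β and 0.32 (SE 0.10) for TGF-β + uridine against control did not pass edgeR's test (adjusted p = 0.123 and 0.135). They did with the GC slope as a covariate, at 0.36 and 0.31 (adjusted p = 0.000147 and 0.000381 by edgeR). That slope was computed from the same libraries, so the covariate's p-values are not independent evidence. VHL, the recognition subunit of the ligase that marks HIF-α, measured 39.4, 55.8 and 66.7 CPM in controls, 38.4, 45.8 and 41.8 CPM with TGF-β, and 51.3, 42.2 and 49.6 CPM with TGF-β + uridine. Its groups overlapped, with a log2 fold change of −0.36 for TGF-β (SE 0.18, adjusted p = 0.526 by edgeR). Of the hydroxylases, EGLN3 held 12.0 to 13.7 CPM in controls, 14.7 to 15.7 CPM with TGF-β and 9.90 to 12.2 CPM with TGF-β + uridine, while EGLN1 overlapped between all groups (10.9 to 27.9 CPM over the 9 libraries).

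Against the controls, TGF-β raised 3 of the 40 members in edgeR's test and lowered none. The 3 were NDRG1, PFKFB3 and P4HA2. Over all tested genes 2.42% were called higher and 0.964% lower. At an unadjusted p under 0.05, edgeR gave 8 members higher and 0 lower (12.1% of all genes in either direction), and DESeq2 called 3 higher and 0 lower. The median log2 fold change of the members was −0.00, against −0.05 over all tested genes. It was 0.20 without control replicate 1, 0.14 without control replicate 3 and 0.13 with the library's GC slope as a covariate (−0.04, 0.01 and 0.01 over all genes), so that its value rests on single control libraries. Since the members were chosen with results known, these counts are not independent evidence of a direction. The calls rested on the full set of libraries: without control replicate 2 or any 1 TGF-β library, none of the 3 passed edgeR's test (adjusted p = 0.068 to 0.175). NDRG1 also missed it without control replicate 3 or any 1 TGF-β + uridine library (adjusted p = 0.0614 to 0.0768 by edgeR), and P4HA2 without TGF-β + uridine replicate 1 (adjusted p = 0.0651 by edgeR).

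PFKFB3 makes fructose-2,6-bisphosphate, the main activator of phosphofructokinase. It measured 21.9, 19.6 and 20.3 CPM in the controls, 31.8, 30.0 and 32.5 CPM with TGF-β, and 35.5, 34.2 and 30.7 CPM with TGF-β + uridine. The treated groups overlapped each other and lay clear of the controls. Its log2 fold change was 0.61 (SE 0.11, adjusted p = 0.0157 by edgeR) for TGF-β and 0.70 (SE 0.11, adjusted p = 0.00703 by edgeR) for TGF-β + uridine against control. Its relative PFKFB4, which also degrades the activator, measured 10.8, 5.22 and 7.03 CPM, then 10.4, 9.83 and 8.91 CPM, then 11.5, 10.2 and 17.1 CPM in the same order of groups. All 3 PFKFB4 groups overlapped, and its log2 fold change for TGF-β + uridine against control was 0.75 (SE 0.29, adjusted p = 0.209 by edgeR). PFKFB4 overlaps UCN2 on the same strand, and TGF-β + uridine replicate 3 held the highest counts of both (758 and 160). How far their reads were shared was not tested.

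P4HA2, a catalytic subunit of collagen prolyl 4-hydroxylase, measured 56.6, 43.6 and 37.5 CPM in controls, 80.9, 73.8 and 77.6 CPM with TGF-β, and 68.9, 75.0 and 63.7 CPM with TGF-β + uridine. Every treated library was above every control. The log2 fold change was 0.76 for TGF-β (SE 0.15, adjusted p = 0.0278 by edgeR) and 0.59 for TGF-β + uridine against control (SE 0.15, adjusted p = 0.0582 by edgeR). P4HA1, the other subunit gene of the list, spread more widely: its libraries ran from 3.11 to 18.2 CPM in controls and overlapped in all groups. P4HA1 has a GC content of 40.8% against 49.1% for P4HA2, and its lowest control value was again in replicate 1. P4HA2 overlaps PDLIM4 and SLC22A4 on the opposite strand, whose reads could not be told apart if counting did not use strand.

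NDRG1, a hypoxia-induced gene known to restrain growth and spread in several tumours, was called higher with TGF-β and lower with TGF-β + uridine against control. It measured 169, 149 and 141 CPM in controls, 210, 218 and 205 CPM with TGF-β, and 105, 113 and 109 CPM with TGF-β + uridine. The 3 groups did not overlap, with the TGF-β libraries highest and the TGF-β + uridine libraries lowest. The log2 fold change for TGF-β was 0.46 (SE 0.09, adjusted p = 0.0311 by edgeR). For TGF-β + uridine against TGF-β it was −0.95 (SE 0.10), given as a description since this value was known when the genes were picked. Against the controls, the TGF-β + uridine libraries were lower by a log2 fold change of −0.49 (SE 0.09, adjusted p = 0.0201 by edgeR). Both comparisons with the controls use libraries of the contrast known beforehand, so these p-values are not independent of how NDRG1 was picked.

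CA9 and CA12 encode membrane carbonic anhydrases that handle the acid made by glycolysis. CA9 measured 82.3, 59.8 and 51.1 CPM in controls, 54.1, 49.4 and 53.6 CPM with TGF-β, and 39.3, 39.5 and 35.9 CPM with TGF-β + uridine. The uridine libraries were below all others, while those of the control and TGF-β groups overlapped. The log2 fold change against control was −0.30 for TGF-β (SE 0.16, adjusted p = 0.582 by edgeR) and −0.75 for TGF-β + uridine (SE 0.16, adjusted p = 0.0331 by edgeR). The uridine libraries were also part of the contrast in view when the members were chosen. The p-value for TGF-β + uridine is therefore not independent of that choice. CA9 is rich in GC (60.1%) and highest in control replicate 1. It overlaps ARHGEF39 on the opposite strand, whose reads could not be told apart if counting did not use strand. With the GC slope as a covariate the log2 fold changes were −0.25 and −0.69 (adjusted p = 0.00894 and 2.6e-06 by edgeR). CA12 ran from 45.4 to 65.0 CPM in controls, 65.8 to 70.0 CPM with TGF-β and 52.6 to 62.8 CPM with TGF-β + uridine.

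**Figure D2:**
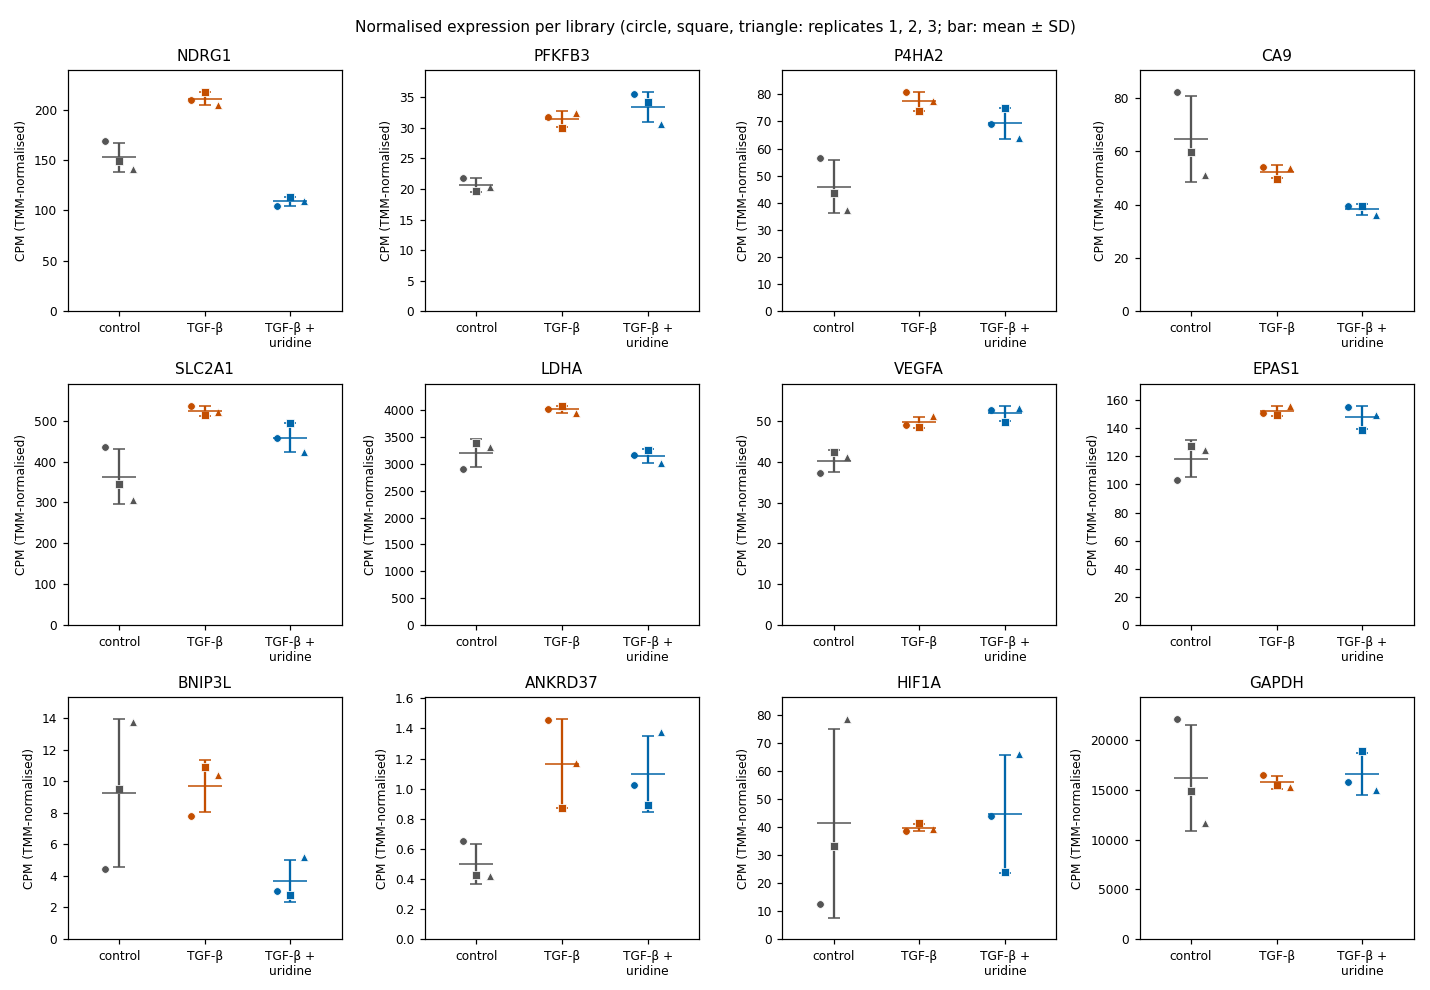
CPM (TMM-normalised, axes from 0) of 12 members in each of 9 libraries, by group; symbols mark replicates 1 to 3 and bars the mean ± SD. NDRG1 is highest in the TGF-β group and lowest in the TGF-β + uridine group, PFKFB3 and P4HA2 are above the controls in both treated groups, and the controls of HIF1A, BNIP3L and GAPDH spread beyond both ends of the TGF-β group.

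Of the genes for glucose uptake and lactate, SLC2A1 and LDHA lay highest in the TGF-β group without passing the test. SLC2A1 (GLUT1), the basal glucose transporter, measured 437, 345 and 306 CPM in controls, 537, 514 and 521 CPM with TGF-β, and 458, 494 and 424 CPM with TGF-β + uridine. The TGF-β libraries did not overlap with either other group, and the log2 fold change for TGF-β was 0.53 (SE 0.14, adjusted p = 0.0802 by edgeR). LDHA, which turns pyruvate into lactate, measured 2895, 3390 and 3316 CPM in controls, 4017, 4081 and 3944 CPM with TGF-β, and 3159, 3263 and 3016 CPM with TGF-β + uridine. Here too the TGF-β libraries were above all others, with a log2 fold change of 0.33 for TGF-β (SE 0.11, adjusted p = 0.193 by edgeR) and −0.02 for TGF-β + uridine against control (SE 0.11, adjusted p = 0.970 by edgeR). SLC2A3 (GLUT3) ran from 72.3 to 73.6 CPM with TGF-β and from 45.6 to 59.0 CPM with TGF-β + uridine, against 66.5 to 86.3 CPM in controls. Its log2 fold change for TGF-β + uridine against control was −0.51 (SE 0.13, adjusted p = 0.0624 by edgeR).

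Some HIF-induced members lay higher in the treated groups but did not pass the test. VEGFA, the vessel growth factor, measured 37.2, 42.4 and 41.3 CPM in controls, 49.0, 48.6 and 51.2 CPM with TGF-β, and 52.7, 49.7 and 53.2 CPM with TGF-β + uridine. All treated libraries were above all controls, with log2 fold changes of 0.30 (SE 0.09, adjusted p = 0.162 by edgeR) and 0.36 (SE 0.09, adjusted p = 0.0610 by edgeR). ANKRD37, an ankyrin repeat gene induced by HIF, had the largest log2 fold change of the members for TGF-β at 1.23 (SE 0.34, adjusted p = 0.111 by edgeR), from 0.652, 0.429 and 0.419 CPM in controls to 1.46, 0.871 and 1.17 CPM. With TGF-β + uridine it measured 1.02, 0.889 and 1.38 CPM, again above every control (log2 fold change 1.14, SE 0.34, adjusted p = 0.106 by edgeR). ANKRD37 had the lowest CPM of the members, where 3 counts are worth 0.0629 to 0.0889 CPM, and it overlaps UFSP2 on the other strand.

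In the direct comparison of TGF-β + uridine with TGF-β, 26 of the 40 members had a negative and 14 a positive log2 fold change, with a median of −0.04 against 0.02 over all tested genes. Leaving out 1 library moved that median to between −0.12 (without TGF-β + uridine replicate 2 or 3) and −0.02 (without TGF-β replicate 1). NDRG1 was the 1 member called lower, where 0.0448% of all tested genes were, and 0 members were called higher, where 0.0% were. At an unadjusted p under 0.05, edgeR gave 7 members lower and 0 higher (8.79% of all genes in either direction), and DESeq2 called 2 lower and 0 higher. The libraries of 14 members lay all lower with uridine (12.8% of all genes) and those of 1 member, ENO2, all higher (12.8% of all genes). Nothing is read from these counts, since the contrast was in view when the members were chosen. The comparison shares its TGF-β libraries with that of TGF-β against control, and both comparisons with the controls share these.

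The member with the largest fold change there was BNIP3L, a receptor that marks mitochondria for removal. It measured 7.82, 10.9 and 10.4 CPM with TGF-β and 3.05, 2.77 and 5.22 CPM with TGF-β + uridine, a log2 fold change of −1.40 (SE 0.41). The controls held 4.41, 9.50 and 13.8 CPM and overlapped both groups, and the log2 fold change of TGF-β + uridine against control was −1.33 (SE 0.41, adjusted p = 0.115 by edgeR). BNIP3L overlaps PNMA2 on the opposite strand, so reads may be shared if counting did not use strand. KDM3A, a HIF-induced histone demethylase, held 10.7, 11.3 and 11.8 CPM with TGF-β and 6.81, 4.47 and 10.2 CPM with TGF-β + uridine (log2 fold change −0.66, SE 0.48). Its controls, at 4.12, 12.5 and 18.7 CPM, spanned both. Both genes are poor in GC (38.9% and 42.5%) and were lowest among the controls in replicate 1. DDIT4, an inhibitor of mTORC1, went from 297 to 312 CPM with TGF-β to 212 to 245 CPM with TGF-β + uridine, a log2 fold change of −0.43 (SE 0.12), and its controls held 246 to 313 CPM. LDHA had a log2 fold change of −0.35 (SE 0.11), CA9 of −0.45 (SE 0.16), SLC2A3 of −0.44 (SE 0.13) and EGLN3 of −0.41 (SE 0.14). PFKFB3, P4HA2 and VEGFA had values of 0.09, −0.16 and 0.06. ADM, the vasodilator peptide adrenomedullin, had −0.35 (SE 0.16) and MXI1, an antagonist of MYC, −0.40 (SE 0.31). Of the 14 members with a positive value, PFKFB4 had the largest at 0.41 (SE 0.29). It was followed by HK2 at 0.25 (SE 0.31), ENO2 at 0.23 (SE 0.21) and EGLN1 at 0.20 (SE 0.30). VHL had 0.18 (SE 0.18) and HIF1A 0.17 (SE 0.57).

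**Figure D3:**
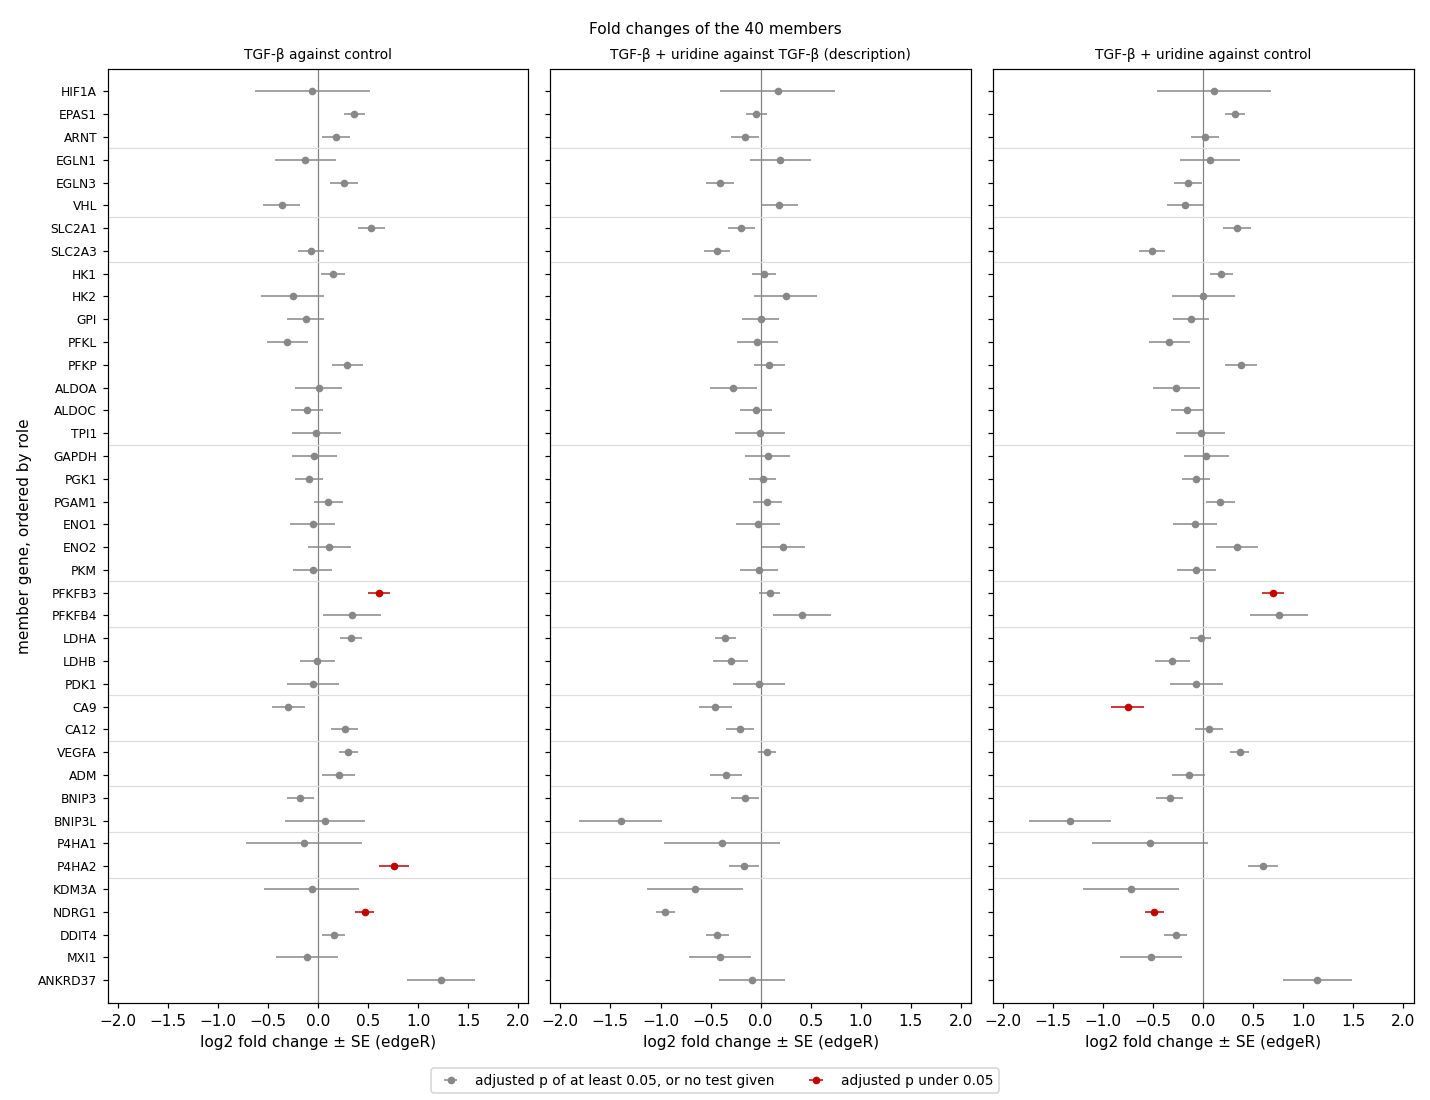
Log2 fold change ± SE (edgeR) of the 40 members, ordered by role, in the 3 comparisons. Red points passed the adjusted p of 0.05 against control, and the middle panel is a description in which NDRG1 (−0.95) and BNIP3L (−1.40) lie farthest below 0.

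Against controls, the TGF-β + uridine group had 1 member called higher, PFKFB3, where 2.89% of all tested genes were called higher, and 2 called lower, CA9 and NDRG1, where 2.44% were called lower. This comparison shares its TGF-β + uridine libraries with the contrast in view when the members were chosen. Its p-values and counts are therefore not independent of that choice. PFKFB3 passed without any 1 library, whereas CA9 and NDRG1 missed the threshold without control replicate 2, any 1 TGF-β library or any 1 TGF-β + uridine library (adjusted p = 0.0545 to 0.128 by edgeR). At an unadjusted p under 0.05 there were 8 higher and 6 lower by edgeR (17.6% of all genes in either direction). The libraries did not overlap for 5 members that were higher (10.5% of all genes) and 4 that were lower, namely CA9, DDIT4, NDRG1 and SLC2A3 (9.2% of all genes). In the TGF-β against control comparison they did not overlap for 10 members that were higher (9.72% of all genes) and for 0 that were lower (7.96% of all genes). With 3 libraries against 3, an exact permutation test of a single gene cannot go below p = 0.1.

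None of the glycolysis enzymes passed the test over the 9 libraries without a covariate. Of the 16 enzymes from hexokinase to lactate dehydrogenase, 0 were called in any comparison by edgeR or by DESeq2, where edgeR called 2.42% of all genes higher and 0.964% lower for TGF-β, and 2.89% and 2.44% for TGF-β + uridine against control. With the library's GC slope as a covariate, described further on, edgeR called 4 enzymes higher and 1 lower for TGF-β (11.6% and 8.67% of all genes), 3 lower for TGF-β + uridine against TGF-β (9.16%), and 5 higher and 2 lower for TGF-β + uridine against control (17.9% and 13.3%). Without control replicate 1 and without the covariate, edgeR called 1 higher for TGF-β (7.93% of all genes in either direction). In the same setting it called 1 lower for TGF-β + uridine against TGF-β (1.98%), and 3 higher and 1 lower for TGF-β + uridine against control (17.6%). At an unadjusted p under 0.05 edgeR gave 1 higher for TGF-β (12.1% of all genes in either direction). It gave 1 lower for TGF-β + uridine against TGF-β (8.79%) and 1 higher for TGF-β + uridine against control (17.6%). In the same order of comparisons, limma on log2(FPKM + 1) called 1, 0 and 3 higher. Log2 fold changes ran from −0.31 to 0.33 for TGF-β, from −0.35 to 0.25 for TGF-β + uridine against TGF-β and from −0.34 to 0.38 for TGF-β + uridine against control. GAPDH measured 22124, 14864 and 11685 CPM in controls, 16538, 15517 and 15336 CPM with TGF-β, and 15786, 18984 and 14997 CPM with TGF-β + uridine. The controls alone spanned the other 2 groups, and the log2 fold change for TGF-β was −0.04 (SE 0.23, adjusted p = 0.998 by edgeR). PGK1, the first enzyme of glycolysis to yield ATP, measured 1700, 1345 and 1209 CPM, then 1352, 1343 and 1292 CPM, then 1307, 1467 and 1269 CPM. Together the 16 enzymes took 4.35% to 5.26% of all counts in controls, 4.74% to 4.88% with TGF-β and 4.76% to 5.03% with TGF-β + uridine.

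In TMM-scaled CPM, the spread of the enzymes within the control and TGF-β + uridine groups went with the library's GC slope. The TMM factors, by which counts are divided, ran in the reverse order of the slope in both groups. They were 0.820, 1.04 and 1.16 in control replicates 1 to 3, and 1.04, 0.930 and 1.08 with TGF-β + uridine. A gene with even counts thus ranks with the slope by scaling alone, and the part of the scaling was not tested. In the controls, 13 of the 16 enzymes ranked in the order of the slope (81.3%), with replicate 1 highest and replicate 3 lowest, against 39.2% of all tested genes. In the TGF-β + uridine group it was 13 of 16 (81.3%, against 31.0% of all genes), and in the TGF-β group, whose slopes were close together, 4 of 16 (25.0%, against 17.2%). HK2 and LDHB ran the other way in the controls, with GC contents of 51.2% and 46.5%, and LDHA, low in GC, ranked in neither order. PGK1 (43.3%) ranked with the slope in CPM, but its control counts before scaling were even, at 57399, 56470 and 57639. HK1 also ranked with the slope in CPM, while its control counts rose from replicate 1 to 3, at 11268, 11650 and 11988. The joint share of the 16 enzymes in unscaled counts was 5.26%, 4.69% and 4.35% in the controls. With TGF-β + uridine it was 4.76%, 5.03% and 4.77%. HK2 measured 15.9, 31.1 and 44.6 CPM in the controls, and LDHB 650, 968 and 1096 CPM. The part of the slope in any difference between groups was read only through a covariate. The covariate was computed from the CPM of the same 9 libraries. It can take up spread between them, so its p-values are not independent evidence. With the covariate, edgeR called 13 members higher with TGF-β (11.6% of all genes) and 3 lower, CA9, PFKL and VHL (8.67% of all genes). Among the 13 were SLC2A1 (0.56), LDHA (0.33), EPAS1 (0.36), VEGFA (0.30) and PFKP (0.33 on the log2 scale), beside the 3 called without it. For TGF-β + uridine against control it called 12 higher (17.9% of all genes) and 11 lower (13.3% of all genes), and for TGF-β + uridine against TGF-β 0 higher (10.0% of all genes) and 14 lower (9.16% of all genes), the last again as a description. Without control replicate 1 and without the covariate, 6 members were called in either direction for TGF-β (7.93% of all genes), 5 for TGF-β + uridine against TGF-β (1.98%) and 17 for TGF-β + uridine against control (17.6%).

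**Figure D4:**
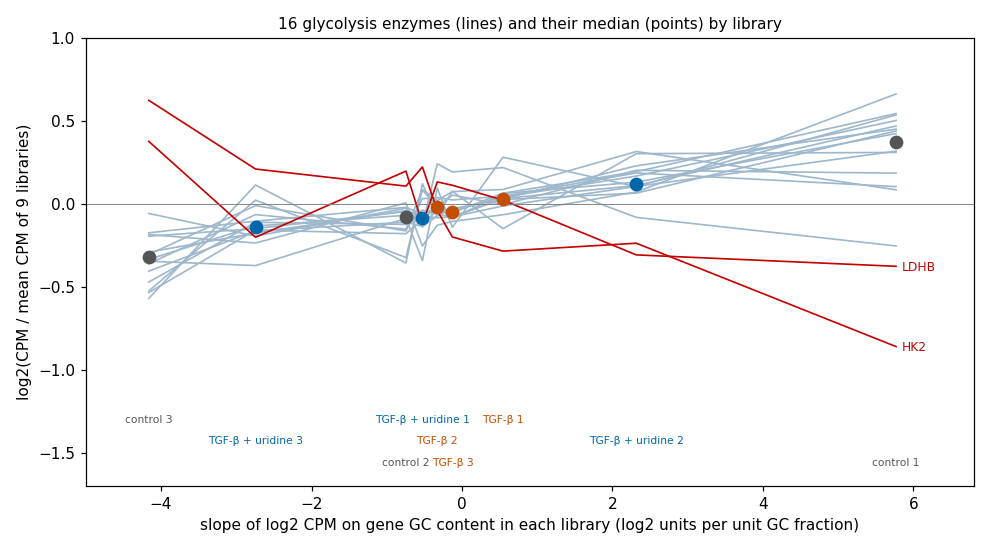
Log2 of each library's CPM over the mean of 9 libraries for 16 glycolysis enzymes (lines; HK2 and LDHB in red), plotted against the library's slope of log2 CPM on gene GC content; points are the median enzyme, coloured by group. In TMM-scaled CPM, the median runs from −0.32 in control replicate 3 to 0.37 in control replicate 1, and the TGF-β libraries lie between −0.05 and 0.03.

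Ratios of related genes within a library do not depend on its total count. They are given on FPKM as a description. PFKP and PFKL encode platelet and liver forms of phosphofructokinase, the enzyme that commits glucose to glycolysis. PFKP over PFKL was 1.25, 1.49 and 1.48 in controls, 2.08, 2.07 and 2.12 with TGF-β, and 2.37, 2.21 and 2.24 with TGF-β + uridine. Every treated library was above every control, and the TGF-β + uridine libraries were above those with TGF-β. PFKL has a GC content of 64.1% and PFKP one of 57.5%. In edgeR's test over the 9 libraries without the covariate neither gene was called (log2 fold change for TGF-β 0.29, SE 0.16, for PFKP and −0.31, SE 0.20, for PFKL). Of 20 alternatives, 5 called PFKP and 2 called PFKL for TGF-β against control. Without control replicate 1, PFKP was called higher against control, at 0.48 for TGF-β and 0.55 for TGF-β + uridine (adjusted p = 0.0233 and 0.00903 by edgeR). SLC2A1 over SLC2A3 was 4.02 to 7.42 in controls, 8.04 to 8.25 with TGF-β and 8.36 to 12.2 with TGF-β + uridine, so that the groups did not overlap. ENO1 over ENO2, the common and the neuronal enolase, was 394 to 417 in controls, 325 to 401 with TGF-β and 291 to 321 with TGF-β + uridine. In ENO1 over ENO2 the TGF-β libraries overlapped with the controls. LDHA over LDHB overlapped in all groups, at 2.37 to 3.74 over the 9 libraries. Of the 9 ratios computed, HK1 over HK2 (5.98 to 22.2), P4HA2 over P4HA1 (1.16 to 11.5), PFKFB3 over PFKFB4 (1.98 to 4.16) and EPAS1 over HIF1A (1.22 to 6.44) also overlapped in all groups. CA9 over CA12 was 3.10 to 7.16 in controls, 2.79 to 3.24 with TGF-β and 2.36 to 2.96 with TGF-β + uridine, with overlap between neighbouring groups. The part of the GC slope in these ratios was not tested.

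**Figure D5:**
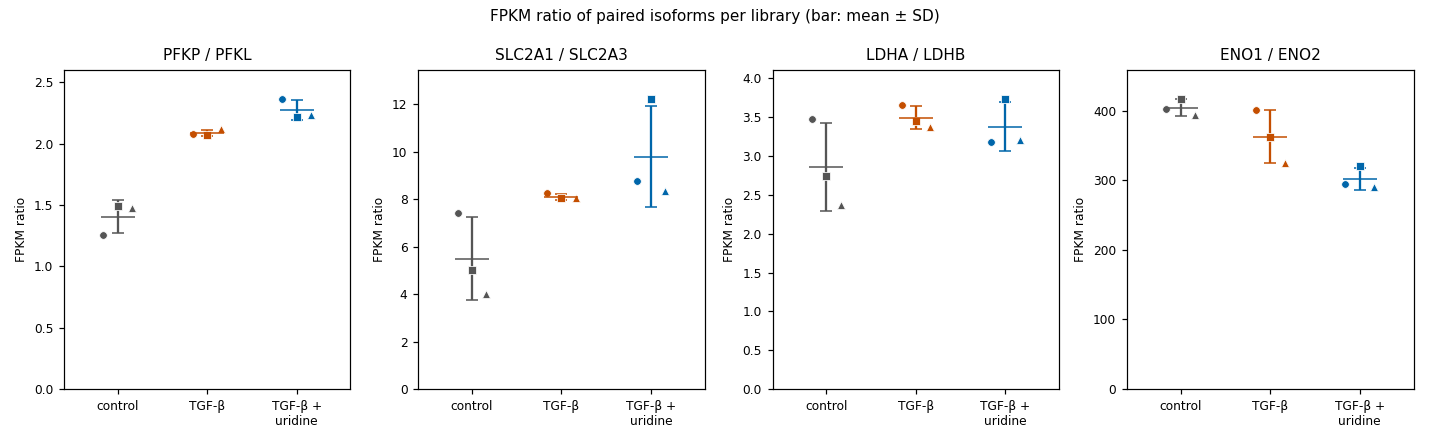
Ratio of FPKM values of 4 of the 9 gene pairs in each of 9 libraries, by group (axes from 0; bars are the mean ± SD). PFKP over PFKL is at most 1.49 in the controls and at least 2.07 in the treated libraries, while LDHA over LDHB overlaps between groups.

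Other genes of the pathway were taken from lists written by function with earlier results of these data known. Of 40 further HIF-induced genes, 36 were tested, and edgeR called 2 higher and 1 lower with TGF-β, beside 2.42% and 0.964% of all genes. LOX, a collagen crosslinking enzyme, was higher by a log2 fold change of 2.04 (SE 0.16, adjusted p = 0.00023 by edgeR), from 5.60 to 8.31 CPM in controls to 28.1 to 28.6 CPM. BHLHE40, a transcriptional repressor in the circadian clock, had a log2 fold change of 0.96 (SE 0.08, adjusted p = 0.000309 by edgeR). CITED2, which competes with HIF for its coactivator, had one of −1.05 (SE 0.13, adjusted p = 0.00287 by edgeR). Against control, TGF-β + uridine gave LOX (1.65) and BHLHE40 (0.84) as higher and CITED2 (−1.53) and ZNF395 (−0.92) as lower. Over all genes, 2.89% were called higher and 2.44% lower in that comparison. For TGF-β + uridine against TGF-β, 0 of the 36 were called by edgeR or DESeq2. At an unadjusted p under 0.05 edgeR gave 0 higher and 7 lower, beside 8.79% of all genes in either direction. As for the members, nothing is read from these counts. Of 6 tested oxygen-sensing genes beyond the members, 0 were called in any comparison by edgeR or DESeq2, and 0 had an unadjusted p under 0.05. Of 11 tested further glycolysis and lactate genes, edgeR called 1, LDHD, the D-lactate dehydrogenase, which was lower in TGF-β + uridine than in control (log2 fold change −1.85, SE 0.43, adjusted p = 0.0440 by edgeR). For that comparison DESeq2 and limma on log2(FPKM + 1) each called 1 higher and 1 lower, and limma also called 1 higher for TGF-β.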

How the data were processed

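RNA of 9 LX-2 libraries was analysed, 3 in each group, taken from the sample labels; the control group rests on the titles. The authors deposited a table of read counts per gene symbol, not normalized, and a table of FPKM values of the same genes and libraries, and no other column was used. Dividing counts by FPKM gave the same gene length in every library, so both tables hold the same measurement. The submitters' processing notes name fastp, HISAT2, HTSeq, R 3.2.0 and the build GRCh38.p13; the annotation and the strand setting of the counting are not given in the sources used here.

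With edgeR 4.0.16 under R 4.3.3, counts were filtered (filterByExpr), scaled (TMM) and fitted (glmQLFit, glmQLFTest) in 1 model of the 3 groups, two-sided, with Benjamini-Hochberg adjustment over 13384 genes and a threshold of 0.05. The common biological coefficient of variation was 0.289. The fit was first tested on simulated data. Libraries held 40539751 to 41467124 counts, and limits from 3 counts cover counting error only. Same-numbered libraries had correlations of their deviations from −0.21 to 0.56, so that numbers were not taken as pairs.

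The members, the pathway lists and the tests were chosen with earlier results of these data known. Values per library are given for members called in any comparison, for the 3 members with the largest absolute log2 fold change in each comparison, and for HIF1A, EPAS1, VHL, CA9, VEGFA, SLC2A1, LDHA, GAPDH and PGK1; of the other lists only called genes are named, and 1 result among them is not reported here. Other members with values were named after these had been seen. Alternatives were DESeq2 1.42.0, limma 3.58.1 on log2(FPKM + 1) and log2(FPKM + 0.1), RLE and upper-quartile scaling, 2 other filters, a fit of only the 2 groups compared, a replicate block, a GC slope covariate (the slope of log2 CPM on gene GC fraction within a library), both together, and leaving out each library. GC content came from the longest GENCODE v29 transcript and was matched for 12319 of the 13384 genes (92.0%); promoter windows came from RefSeq on GRCh38.p14.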

Additional observations from a re-analysis of the deposited data

How the results depend on the processing

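Counts of called members moved with the setting, and the direction of no called member turned in any of 20 alternatives. The share of all genes called at the adjusted p was computed only for edgeR's main fit, the GC slope covariate and the fit without control replicate 1. Counts from DESeq2, limma and the other settings, here and above, have no such share beside them and are not a result about the members. With the covariate, 11.6% of all genes were called higher and 8.67% lower for TGF-β. For TGF-β against control, 3 members were called higher and 0 lower; the count higher became 1 with a replicate block, 0 with only the 2 groups compared, 5 and 6 with limma on log2(FPKM + 1) and log2(FPKM + 0.1), and 13 higher and 3 lower with the GC slope covariate. For TGF-β + uridine against TGF-β, 1 member was called lower; this became 2 with DESeq2, 0 with a replicate block, 4 with only the 2 groups compared, 3 with limma at either pseudocount and 14 with the GC slope covariate. For TGF-β + uridine against control, 1 was called higher and 2 lower; the count higher became 2 with DESeq2, upper-quartile scaling or at least 10 counts in every library, 0 with only the 2 groups compared, 7 with limma at either pseudocount and 12 with the covariate, and the count lower became 4 with DESeq2, 0 with a replicate block or only the 2 groups compared and 11 with the covariate. The replicate block together with the GC slope covariate gave 14 higher and 3 lower, then 11 lower, then 12 higher and 10 lower, in the same order; same-numbered libraries did not all deviate together, so the block is not a pairing of the design.

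Leaving out 1 library gave 0 to 5 higher and 0 to 1 lower for TGF-β, 0 to 5 lower for TGF-β + uridine against TGF-β, and 1 to 9 higher and 0 to 8 lower for TGF-β + uridine against control. The highest counts (5 and 1, 5, 9 and 8) came without control replicate 1. In that setting 7.93%, 1.98% and 17.6% of all genes were called in either direction, in the same order of comparisons. Without control replicate 2 or any single TGF-β library, 0 were called higher for TGF-β, and without TGF-β + uridine replicate 1, 1 was. In the other 2 comparisons 0 were called lower without control replicate 2, without any 1 TGF-β library and without any 1 TGF-β + uridine library. PFKFB3 against control passed 19 of 20 alternatives with TGF-β + uridine, while NDRG1 for TGF-β passed 8. The causes of these shifts were not tested. Genes near 1 CPM, such as ANKRD37, are limited by their counts.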

Other observations

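Of 11 tested genes of pyruvate transport, pyruvate dehydrogenase and its regulators, PDK2, a kinase that inhibits pyruvate dehydrogenase, was the 1 called by edgeR over the 9 libraries without the covariate, and DESeq2 called 2 lower for TGF-β + uridine and 1 lower for TGF-β against control. PDK2 was lower with TGF-β + uridine than in controls, at 20.7, 21.4 and 19.4 CPM against 54.3, 39.0 and 30.7 CPM (log2 fold change −1.01, SE 0.19, adjusted p = 0.0166 by edgeR). Over all genes, 2.44% were called lower in that comparison. The TGF-β libraries, at 30.1, 31.3 and 28.8 CPM, overlapped with the controls and lay above those with TGF-β + uridine. PDK2 has a GC content of 59.8% and was highest in control replicate 1.

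Among 9 tested genes of sugar pathways that branch from glycolysis, GFPT2, which starts hexosamine synthesis, was called higher by edgeR with TGF-β + uridine against control. It measured 8.06, 7.52 and 8.05 CPM in controls, 9.78, 11.2 and 11.1 CPM with TGF-β, and 14.0, 17.3 and 14.0 CPM with TGF-β + uridine (log2 fold change against control 0.94, SE 0.15, adjusted p = 0.0076 by edgeR). The TGF-β + uridine libraries were above all others. Over all genes, 2.89% were called higher for TGF-β + uridine against control.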
